A study of Homo sapiens with 6 samples.

Results

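A set of 10 genes of the actin cytoskeleton was followed across 6 RNA-seq libraries of H295R cells, a human adrenocortical carcinoma line. They are the smooth muscle actins ACTA2 and ACTG2, the contractile proteins TAGLN, CNN1 and MYL9, the tropomyosins TPM1 and TPM2, the cross-linker ACTN1 and the thymosins TMSB4X and TMSB10. These genes were taken by name from a table of counts for 57341 named genes, in which each has a row of its own with values for all 6 libraries.

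The series compared parental H295R cells with H295R-PM-Ptc+ cells, with 3 libraries of each. H295R-PM-Ptc+ cells are the part of the parental line that carried the Hedgehog receptor Patched (PTCH1) at the plasma membrane, collected by flow sorting and then expanded in culture. Both populations grew in DMEM/F12 medium with NuSerum and ITS+, and no treatment was given. The model is therefore 1 cell line and 1 sorted population derived from it. The labels do not say whether the 3 libraries of a group came from separate cultures, so p-values measure only the spread between these libraries, which may be technical.

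The names of the 2 groups have to be read with care. Each expression column of the study's supplementary table matched, up to a constant scale, the deposited column that shares its sample code but carries the other group's name. The ratio between such columns had a coefficient of variation between 0.915% and 1.00% over genes, against 12.8% or more for the next closest column. PTCH1, for which the cells were sorted, had 18.5, 22.0 and 23.4 counts per 1000000 (CPM) in the libraries labelled H295R and 9.70, 13.1 and 13.8 CPM in those labelled H295R-PM-Ptc+. The log2 fold change was −0.81 (SE 0.147, edgeR quasi-likelihood test, adjusted p = 0.0207), which is lower under the label of the sorted cells. That call was lost without H295R replicate 2 or 3 or H295R-PM-Ptc+ replicate 2 (adjusted p = 0.0799, 0.0921 and 0.0618). Nothing in the count table settles which naming is correct. Groups are therefore called by the labels of the deposited table, and every direction given here would turn around if those labels were exchanged.

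Actin forms the thin filaments that give cells shape and, together with myosin, tension. Most cells build them from the cytoplasmic actins ACTB and ACTG1, while ACTA2 (smooth muscle alpha-actin) and ACTG2 (smooth muscle gamma-actin) are characteristic of contractile cells and myofibroblasts. TAGLN (transgelin) and CNN1 (calponin) bind smooth muscle filaments, MYL9 is a regulatory light chain of myosin II, tropomyosins run along the filament and control access to it, and ACTN1 (alpha-actinin) ties filaments into bundles. The thymosins TMSB4X and TMSB10 are very small proteins that bind single actin molecules and hold them in reserve. Many smooth muscle genes are switched on by serum response factor (SRF), which binds a DNA element called the CArG box, with cofactors that sense the pool of free actin.

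The stretches before the annotated starts are shown for 4 members whose counts carry the results below, namely both smooth muscle actins and both thymosins. They were taken from RefSeq windows on GRCh38.p14, and run 5′ to 3′ on the gene's strand. Those of the thymosins end where the deposited annotation begins the gene, that of ACTA2 at an annotated start inside the gene, and that of ACTG2 with its second CArG box. Capitals mark exact matches to the CArG box.
ACTG2, chr2:73892858-73892944, plus strand: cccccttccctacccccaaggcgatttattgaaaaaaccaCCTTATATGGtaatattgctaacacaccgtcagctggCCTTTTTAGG
ACTA2, chr10:88952774-88952923, minus strand: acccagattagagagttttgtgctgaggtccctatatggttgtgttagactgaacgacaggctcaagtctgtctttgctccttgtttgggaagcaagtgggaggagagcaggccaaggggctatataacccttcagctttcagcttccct
TMSB4X, chrX:12974960-12975107, plus strand: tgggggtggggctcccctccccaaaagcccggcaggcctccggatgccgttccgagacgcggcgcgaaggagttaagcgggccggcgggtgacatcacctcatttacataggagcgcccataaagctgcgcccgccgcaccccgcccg
TMSB10, chr2:84905506-84905624, plus strand: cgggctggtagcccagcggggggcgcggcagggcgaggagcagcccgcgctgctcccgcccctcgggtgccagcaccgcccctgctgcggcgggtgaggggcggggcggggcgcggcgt

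The CArG box was searched by its name, as the full 10-letter element that reads the same on both strands, in the 250 bases before each start. ACTG2 held 2 boxes, at 110 to 101 and at 73 to 64 bases before its start. Among the 13 windows of the 8 members found in the RefSeq table, 1 other held a box, namely 1 of the 4 windows of ACTN1, at 171 to 162 bases before the start. Of all 35116 windows in the table, 407 (1.16%) held one. A match is a description of letters, not a site of binding, and a window without one says only that these exact letters are not there. The ACTA2 stretch shown lies before 1 of its 2 annotated starts, inside the span of the gene and outside all of its deposited exons. That stretch holds ccctatatgg and ccttgtttgg, which each depart from the element at a single letter and so were not marked. TAGLN and MYL9 were not among the matched windows.

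The libraries held 23264403 to 25813247 counts each. Counts were scaled by TMM factors and given as CPM, and levels of different genes were compared as CPM per kilobase of merged exon length. Of the 57341 genes, 16710 passed a filter on low counts and were tested, among them 8 of the 10 members. CNN1 and MYL9 did not pass and have values but no test. The first principal component (45.7% of the variance) separated the groups, and the second (27.6%) set the replicate 1 libraries of both groups apart from the other 4. Same-numbered libraries deviated together from their group means (correlations across genes of 0.497, 0.307 and 0.228), so a fit with the replicate number as a block is given for each member whose call it changes.

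Markers of the labelled cell type were present. The 10 adrenocortical markers were all tested, and their summed level ran from 1045 to 1303 CPM in the libraries labelled H295R and from 1145 to 1443 CPM in those labelled H295R-PM-Ptc+. The 10 pericyte and vascular smooth muscle markers summed to 218 to 228 CPM and 243 to 257 CPM, and the 10 fibroblast markers to 97.9 to 115 CPM and 146 to 160 CPM. Among the pericyte markers RGS5, MCAM, NOTCH3, KCNJ8 and ANGPT1 averaged above 10 CPM, and KCNJ8 was the highest per kilobase. Of 7 tested pericyte markers RGS5 (log2 fold change 0.88, edgeR, adjusted p = 0.0194) and ITGA8 (1.64) were higher under the H295R-PM-Ptc+ label, as were COL3A1 (1.51) and THY1 (1.29) of 5 tested fibroblast markers and the steroid enzyme genes CYP21A2 (0.88) and SULT2A1 (0.60) of the adrenocortical markers, against 2.42% of all genes. Of the 10 adrenocortical markers 5 were below 0, with a median of −0.03. Of the 7 tested pericyte markers 2 were below 0, with a median of 0.09. Of the 5 tested fibroblast markers 1 was below 0, with a median of 0.33. CYP11A1 had a log2 fold change of −0.25 and STAR of 0.41 (edgeR, adjusted p = 0.391 and 0.346), and both passed with the block (0.00100 and 3.91e-06). The fibroblast marker FBLN1 had a log2 fold change of −0.36 (edgeR, adjusted p = 0.141 without the block and 9.63e-04 with it). FAP, another fibroblast marker, stood at 0.33 (0.0755 and 4.33e-04) and the pericyte marker ABCC9 at 0.63 (0.127 and 0.0445), where the block called 22.5% of all genes. SULT2A1 lost its call without any 1 library other than H295R replicate 1 (edgeR, adjusted p = 0.0617 to 0.0879). THY1 lost its call without replicate 2 or 3 of either group (edgeR, adjusted p = 0.0678 to 0.0907), and RGS5 without H295R replicate 3 (0.0695) or H295R-PM-Ptc+ replicate 2 (0.0694) or 3 (0.0737). The defining pericyte gene PDGFRB had at most 4 counts in any library, and the fibroblast genes LUM and POSTN had 0 counts in all 6. Endothelial PECAM1, VWF and KDR and the leukocyte gene PTPRC had at most 3 counts in each library. The 10 endothelial markers summed to 22.7 to 35.0 CPM and 20.0 to 24.7 CPM, of which EGFL7 alone gave 22.2 to 34.3 CPM and 19.1 to 23.6 CPM, and the 10 leukocyte markers to 1.46 to 1.93 CPM and 2.07 to 2.54 CPM. The part of these marker levels in the results below was not tested, and in bulk RNA more cells of a kind cannot be told apart from more RNA per cell.

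The levels of the 10 genes lay far apart. Per kilobase, the small thymosin TMSB10 and the actin ACTA2 were the highest, at the 99.7th and 96.5th percentile of all tested genes, while CNN1 and MYL9 were at the edge of detection. MYL9 (chr20:36541484-36551447) had 1 count in 1 library labelled H295R and 0 in the other 5, where 0 counts allow a level of up to 0.130 CPM (3 counts in the shallowest library, counting error only). CNN1 (chr19:11538717-11550323) had 1, 2 and 1 counts in the libraries labelled H295R and 2, 5 and 2 in those labelled H295R-PM-Ptc+, too few for a comparison. Related genes of general use were abundant beside them. The light chains MYL12B and MYL12A stood at 203 and 59.3 CPM per kilobase, and the calponin CNN3 at 135 CPM per kilobase, as means of all 6 libraries. The myocardin gene MYOCD, the smooth muscle cofactor of SRF, and the intermediate filament gene DES had at most 3 counts in any library.

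**Figure D1:**
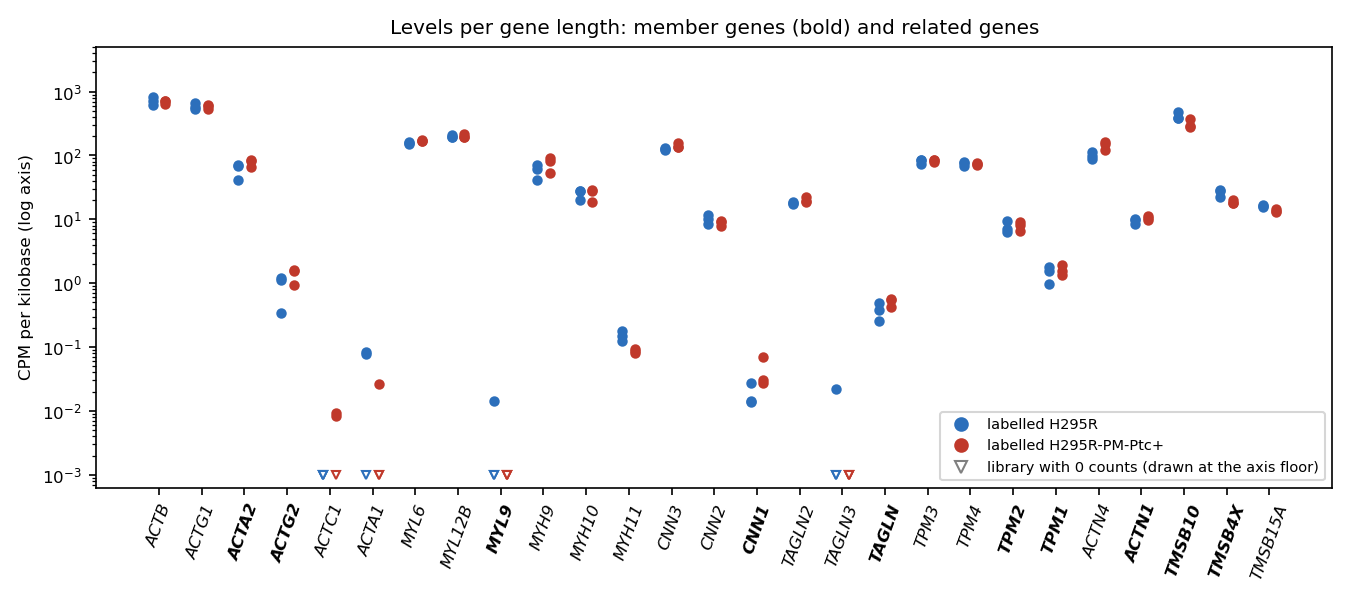
Level of each member (bold) and of related genes in CPM per kilobase of merged exon length, on a log axis, with 1 point per library, open triangles for libraries with 0 counts and groups named by the deposited labels. Among the members TMSB10 and ACTA2 stand highest and CNN1 and MYL9 lowest, with ACTB and ACTG1 above all of them.

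ACTA2 (chr10:88935074-88991390, minus strand) had 123, 205 and 216 CPM in replicates 1, 2 and 3 labelled H295R and 198, 262 and 244 CPM in those labelled H295R-PM-Ptc+. The lowest value was the H295R replicate 1 library, and the groups overlapped, since replicate 1 labelled H295R-PM-Ptc+ lay below 2 of the libraries labelled H295R. The means were 181 ± 50.6 and 235 ± 33.0 CPM (SD, n = 3), with a log2 fold change of 0.37 (SE 0.196) that did not pass the test across all genes (edgeR, adjusted p = 0.387). Without H295R replicate 1 it was 0.16, and with any other library left out it lay between 0.28 and 0.50. With the replicate block the fold change was 0.40 (SE 0.0669, edgeR, adjusted p = 4.44e-04). ACTA2 was higher in each of the 3 same-numbered pairs, by 0.68, 0.35 and 0.18 on the log2 scale.

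As a share of 6 actin genes, ACTA2 did not overlap between groups, while its own CPM overlapped. In CPM, 23.5% of all genes did not overlap. Of the level per kilobase summed over 6 actin genes, ACTA2 took 3.42%, 4.94% and 4.64% in the libraries labelled H295R and 5.25%, 6.22% and 5.71% in those labelled H295R-PM-Ptc+. These shares did not overlap (4.33 ± 0.800% and 5.73 ± 0.486%, SD, n = 3), with an exact two-sided permutation p of 0.1, the smallest that 3 against 3 allow. The cytoplasmic actins ACTB and ACTG1 held nearly all of the rest, at 51.0% to 52.8% and 42.3% to 44.4%. Their log2 fold changes were −0.05 and −0.02 (edgeR, adjusted p = 0.872 and 0.940). The cardiac and skeletal actins ACTC1 and ACTA1 had at most 3 counts in any library.

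ACTG2 (chr2:73892314-73919865, plus strand), whose window held exact CArG matches, was expressed far below ACTA2. It had 1.30, 4.21 and 4.57 CPM in the libraries labelled H295R and 3.52, 5.95 and 6.05 CPM in those labelled H295R-PM-Ptc+. Replicate 1 was the lowest library in both groups, and the groups overlapped. The means were 3.36 ± 1.80 and 5.17 ± 1.43 CPM (SD, n = 3), with a log2 fold change of 0.61 (SE 0.388, edgeR, adjusted p = 0.480). Without H295R replicate 1 it was 0.23, and with any other library left out it lay between 0.48 and 0.89. The blocked fit gave 0.66 (SE 0.167, edgeR, adjusted p = 0.00955), and the pairs differed by 1.44, 0.50 and 0.40 on the log2 scale. ACTG2 had 1.05, 2.05 and 2.12 counts for every 100 of ACTA2 under the H295R label and 1.78, 2.27 and 2.48 under the other, ranges that overlapped. Actin genes are similar in coding sequence, and multiply mapped reads were counted at their primary position. A part of the ACTG2 counts may therefore belong to a more abundant actin, a share that the counts do not show.

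TAGLN (chr11:117199321-117204782), an early marker of smooth muscle, was barely above the filter. It had 36, 49 and 25 counts in the libraries labelled H295R and 42, 55 and 49 in those labelled H295R-PM-Ptc+, or 1.51, 1.93 and 1.01 against 1.64, 2.21 and 2.12 CPM. The groups overlapped (1.48 ± 0.459 and 1.99 ± 0.305 CPM, SD, n = 3), and the log2 fold change of 0.42 (SE 0.254) did not pass the test with or without the block (edgeR, adjusted p = 0.182 and 0.456). It was 0.20 without H295R replicate 3 and 0.66 without H295R replicate 2. Its relative TAGLN2, found in many cell types, had a mean of 45.4 CPM under the H295R label and 49.7 CPM under the other (log2 fold change 0.13, edgeR, adjusted p = 0.523).

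The tropomyosins showed no difference past the test, with or without the block. TPM1 (chr15:63042632-63071915) had 11.8, 21.5 and 18.4 CPM in the libraries labelled H295R and 16.0, 23.0 and 18.5 CPM in those labelled H295R-PM-Ptc+. Both replicate 1 libraries were below the other 4, and the log2 fold change between groups was 0.15 (SE 0.211, edgeR, adjusted p = 0.796). TPM2 (chr9:35681992-35691020) had 38.4, 28.8 and 25.9 CPM against 32.7, 36.4 and 26.6 CPM, groups that overlapped throughout (0.04, SE 0.159, edgeR, adjusted p = 0.935). Replicate 1 was the highest H295R library for TPM2 and the lowest for TPM1. The direction of both turned when single libraries were left out. Both genes make muscle and non-muscle forms by alternative splicing and promoters, which counts per gene do not separate, and the merged length of TPM1 (12042 bases) understates its level per kilobase.

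ACTN1 (chr14:68874143-68979440) varied little between libraries. It had 91.2, 102 and 107 CPM in the libraries labelled H295R and 103, 112 and 118 CPM in those labelled H295R-PM-Ptc+. The ranges overlapped, yet each library labelled H295R-PM-Ptc+ was above its same-numbered partner, by 0.18, 0.13 and 0.14 on the log2 scale. The log2 fold change was 0.15 (SE 0.0891, edgeR, adjusted p = 0.447) and passed only with the replicate block (0.15, SE 0.0446, edgeR, adjusted p = 0.0230). Without the block it was 0.085 with H295R replicate 1 left out and 0.094 with H295R-PM-Ptc+ replicate 3 left out. The closely related ACTN4, also a non-muscle actinin, had 610 ± 76.8 and 883 ± 125 CPM (SD, n = 3), with a log2 fold change of 0.53 and an adjusted p of 0.0570 without the block and 6.13e-07 with it (edgeR). ACTN4 also passed by DESeq2 (adjusted p = 0.00457) and without the filter on low counts.

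The thymosins had the opposite sign. TMSB4X (chrX:12975108-12977227, plus strand) had 38.5, 48.7 and 47.4 CPM in the libraries labelled H295R and 34.1, 30.6 and 30.2 CPM in those labelled H295R-PM-Ptc+. Every library labelled H295R was above every other, and the means were 44.8 ± 5.56 and 31.6 ± 2.16 CPM (SD, n = 3). The log2 fold change of −0.50 (SE 0.105) passed the test across all genes (edgeR, adjusted p = 0.0356), and it was lower in all 3 pairs, by 0.17, 0.67 and 0.65 on the log2 scale in size. The call was lost without H295R replicate 2 (adjusted p = 0.121) or 3 (0.130), or without H295R-PM-Ptc+ replicate 2 (0.140) or 3 (0.145), with edgeR log2 fold changes from −0.60 to −0.44 over all single libraries left out. Its 6 pseudogenes with rows of their own held 10 to 25 counts per library, at most 2.58% of the gene's own.

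TMSB10 (chr2:84905625-84906675, plus strand) lay in a higher range, with 240, 194 and 192 CPM in the libraries labelled H295R and 182, 138 and 146 CPM in those labelled H295R-PM-Ptc+. The groups did not overlap, and replicate 1 was the highest library of each. The means were 209 ± 26.7 and 156 ± 23.4 CPM (SD, n = 3), with a log2 fold change of −0.42 (SE 0.127) that missed the threshold (edgeR, adjusted p = 0.113). The call depended on how the libraries were treated, and the adjusted p was 3.75e-06 with the replicate block (edgeR, log2 fold change −0.43, SE 0.0435) and 0.0414 by DESeq2. The pairs were close to each other, at −0.39, −0.49 and −0.40.

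The thymosins were also read together. Their summed level was 278, 243 and 240 CPM in the libraries labelled H295R and 216, 169 and 176 CPM in those labelled H295R-PM-Ptc+, with an exact two-sided permutation p of 0.1, the smallest possible here. Per kilobase TMSB10 exceeded TMSB4X by 21.4, 13.7 and 13.9 times under the H295R label and by 18.4, 15.6 and 16.6 times under the other, so the ratio overlapped between groups (exact permutation p = 1.00). In CPM the excess was smaller, at 6.23, 3.99 and 4.06 times under the H295R label and 5.34, 4.53 and 4.83 times under the other. These measures differ only through the merged exon lengths, 496 bases for TMSB10 and 1705 bases for TMSB4X. TMSB15A, another thymosin, had 60.5 ± 2.82 and 51.3 ± 2.02 CPM (SD, n = 3) and a log2 fold change of −0.24, with an adjusted p of 0.125 without the block and 0.00519 with it (edgeR).

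**Figure D2:**
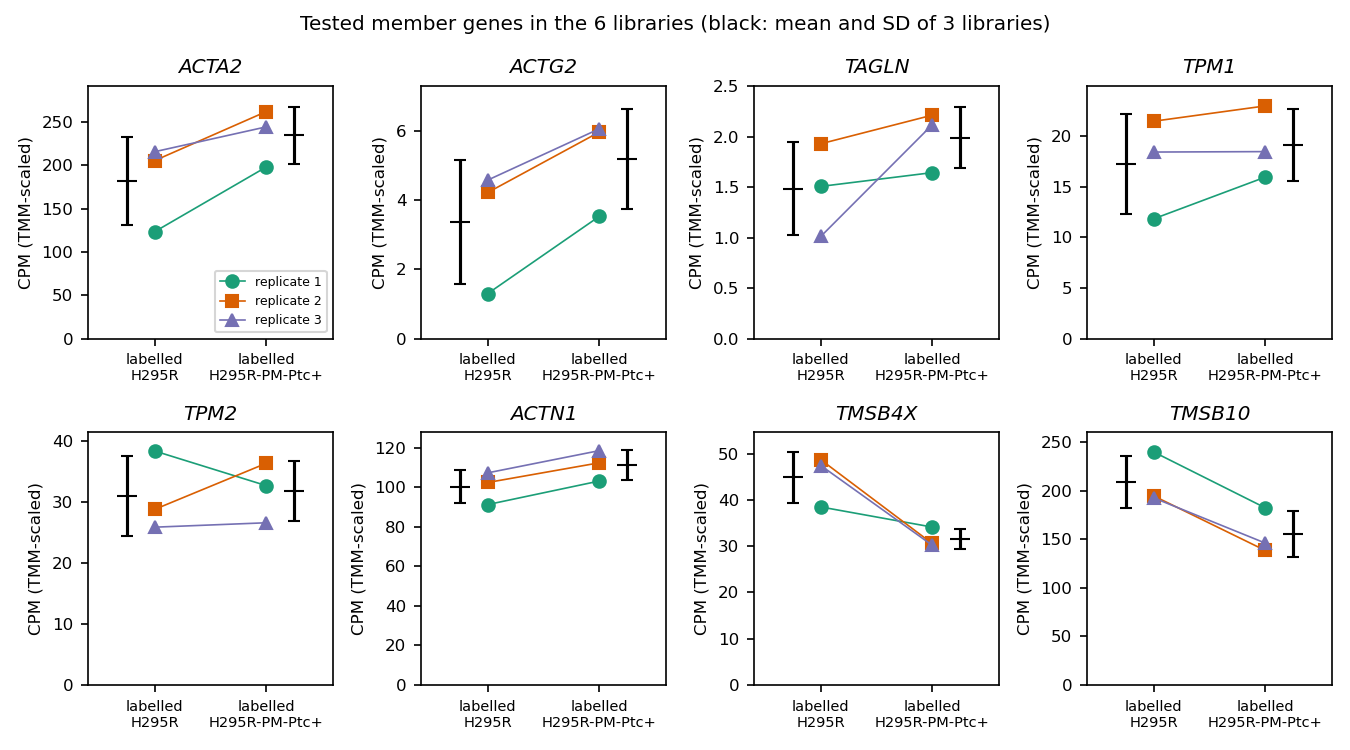
CPM of each tested member in the 6 libraries, with 1 panel per gene, points joined between same-numbered libraries, black bars for the mean and SD, and groups named by the deposited labels. The lines for ACTA2, ACTG2 and ACTN1 run upward in all 3 pairs toward the H295R-PM-Ptc+ label and those for TMSB4X and TMSB10 run downward, while TPM2 has lines in both directions.

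Across the members, 1 of 8 tested genes was called between the groups, TMSB4X, against 3.73% of the 16710 genes tested (2.42% higher and 1.32% lower under the H295R-PM-Ptc+ label). At an unadjusted p under 0.05 there were 2, against 17.3%. The call of TMSB4X was lost without replicate 2 or 3 of either group, which leaves 0, and without H295R-PM-Ptc+ replicate 1 the count was 2. With the replicate block 5 were called, 3 higher (ACTA2, ACTG2, ACTN1) and 2 lower (TMSB4X, TMSB10) under the H295R-PM-Ptc+ label, against 22.5% of all genes (12.1% higher and 10.4% lower). TMSB4X and TMSB10 were the 2 members whose groups did not overlap, a property of 23.5% of all genes. The 3 pairs agreed in sign for 7 of 8 members, 5 upward and 2 downward, against 26.8% and 25.7% of all genes. The median log2 fold change of the 8 was 0.15, beside 0.00 for all tested genes. ACTA2, ACTG2 and TMSB4X are among the genes that the study itself picked out from these same libraries, so their place in this count is not independent of its results.

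**Figure D3:**
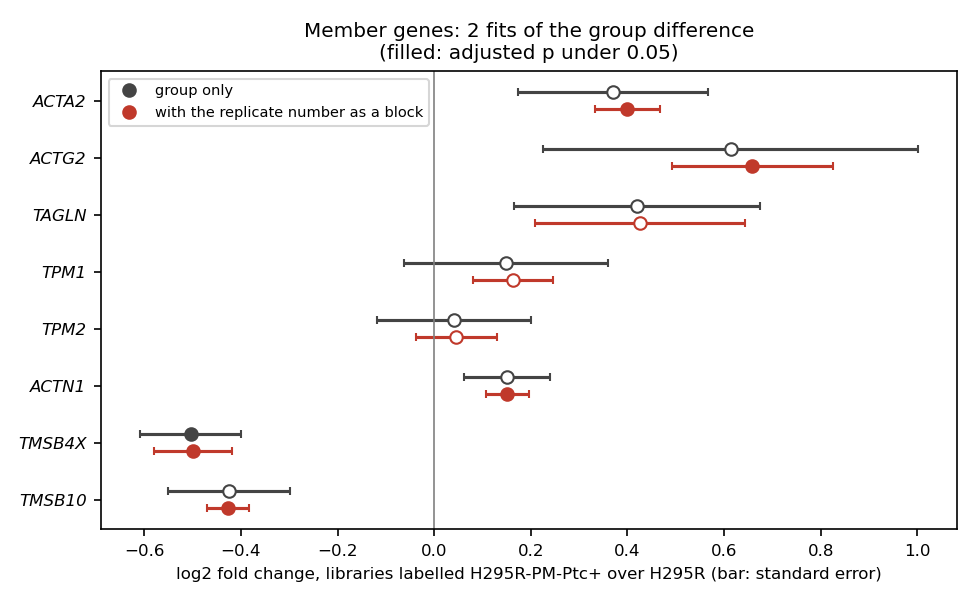
Log2 fold change of each tested member, libraries labelled H295R-PM-Ptc+ over those labelled H295R, with its SE, from the fit with group alone and from the fit with the replicate block. The estimates of the 2 fits lie close together and the block narrows the errors, so that 5 members in place of 1 pass the threshold.

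Most members also differed by replicate number. In a test of the number with the group held in the model, 6 of the 8 differed (ACTA2, ACTG2, TPM1, TPM2, TMSB10 and ACTN1), against 26.0% of all genes tested. The smooth muscle actins were lower in replicate 1 than in replicates 2 and 3, ACTA2 by 0.56 and 0.55 on the log2 scale (edgeR, adjusted p = 1.39e-04) and ACTG2 by 1.09 and 1.16 (0.00125). TPM1 had the same order, with replicates 2 and 3 above replicate 1 by 0.68 and 0.41 (edgeR, adjusted p = 4.73e-04), as did ACTN1 (0.14 and 0.22). TMSB10 and TPM2 ran the other way. Relative to replicate 1, TMSB10 stood at −0.35 and −0.32 (edgeR, adjusted p = 1.91e-04) and TPM2 at −0.13 and −0.44 (0.0127). TMSB4X, the member called between groups, did not pass (adjusted p = 0.729). For 3 of the 8 members both replicate 1 libraries were below all other 4, against 18.6% of all genes, and for 0 of them both were above, against 16.2%. The sources used here do not say what the replicate number stands for.

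**Figure D4:**
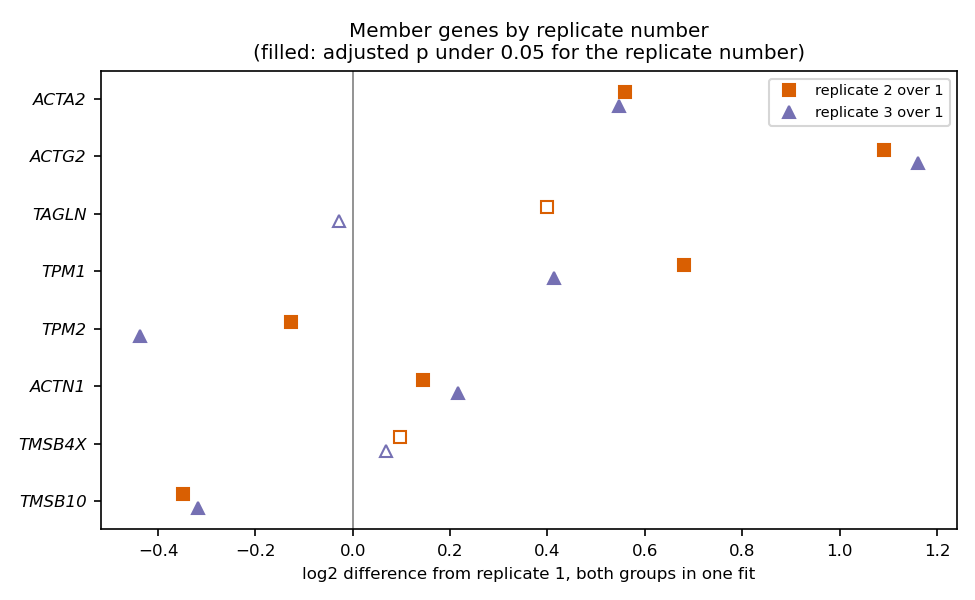
Log2 difference of replicates 2 and 3 from replicate 1, with the group held in the model, for each tested member. ACTA2, ACTG2, TPM1 and ACTN1 lie above 0 and TMSB10 and TPM2 below it, and the filled symbols mark the 6 members that passed the test.

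The wider pathway was described by 8 lists of 121 other genes, of which 108 were tested. Of these, 4 (3.70%) were called between the groups, 3 higher and 1 lower under the H295R-PM-Ptc+ label, close to the 3.73% of all genes, and the median log2 fold change was 0.04. Without H295R replicate 3 or H295R-PM-Ptc+ replicate 2 the count was 2, as it was where at least 10 counts were required in every library. TGFBI, among the 3 higher, passed the filter on low counts only through the group where it was high. With the block 34 (31.5%) were called, 21 higher and 13 lower, against 22.5% of all genes. By replicate number 51 (47.2%) differed, against 26.0% of all genes.

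Other smooth muscle contractile genes did not share a direction, with 9 of 18 tested genes above 0, 9 below, and 1 called (7 with the block, 5 higher and 2 lower). The gene called without the block was CSRP1, a LIM protein of smooth muscle, with 1.38, 2.28 and 1.66 CPM in the libraries labelled H295R and 6.81, 7.24 and 7.86 CPM in those labelled H295R-PM-Ptc+ (log2 fold change 2.03, SE 0.187, edgeR, adjusted p = 8.71e-04). The smooth muscle myosin heavy chain MYH11 went the other way, at 3.48 ± 0.656 and 2.03 ± 0.147 CPM (SD, n = 3), and its log2 fold change of −0.78 had an adjusted p of 0.0570 without the block and 0.00416 with it (edgeR). MYH11 also passed by DESeq2 (adjusted p = 0.0472) and without the filter on low counts (edgeR, 0.0153). MYLK, the kinase of the myosin light chain, had 15.4 ± 3.51 and 22.6 ± 2.57 CPM, with 0.55 and adjusted p values of 0.118 and 1.06e-04, and also passed without that filter (0.00995). Of the 12 genes of non-muscle myosin II, 0 were called without the block by edgeR (0 also at an unadjusted p under 0.05) and 4 with it, 3 of them higher, among which the heavy chain MYH9 stood at 0.38 (edgeR, adjusted p = 0.437 without the block and 7.32e-06 with it). MYH9 was at 0.19 without H295R replicate 1 and 0.23 without H295R-PM-Ptc+ replicate 3. Of the 4 other actins and actinins tested, 0 were called without the block and 1, ACTN4, with it, and all 4 differed by replicate number. In the myosin II list the highest level per kilobase was that of RHOA, the small GTPase upstream of it (287 CPM per kilobase, log2 fold change −0.12). In the contractile list it was that of CNN3 (log2 fold change 0.15, edgeR, adjusted p = 0.445 without the block and 0.0289 with it), followed by TPM3, a tropomyosin of many cell types (81.9 CPM per kilobase, log2 fold change 0.03).

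Among 20 tested genes of the other thymosins and actin monomer binding, 1 was called (6 with the block, 2 higher and 4 lower). This was WIPF1, a partner of the actin nucleation factor WASP. It had 37.3 ± 3.43 CPM under the H295R label and 28.5 ± 0.827 CPM under the other (SD, n = 3; log2 fold change −0.38, SE 0.0870, edgeR, adjusted p = 0.0478). That call was lost on leaving out any library but H295R replicate 2, by limma-voom (adjusted p = 0.0557) and under a filter of 10 counts in each library (edgeR, 0.0552). Profilin PFN1 and cofilin CFL1, the most abundant of the list at 277 and 127 CPM per kilobase, had log2 fold changes of −0.03 and −0.05 and were not called.

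SRF and its cofactors had 0 of 10 tested genes called (edgeR, 0 also at an unadjusted p under 0.05), and SRF itself had 49.4 ± 2.83 and 51.5 ± 2.22 CPM (SD, n = 3). The most abundant of that list were ELK1, a ternary complex partner of SRF, and the coactivator YAP1, at 28.1 and 18.7 CPM per kilobase. YAP1 was the 1 gene of the list called with the block (log2 fold change −0.13, edgeR, adjusted p = 0.0447). Among the 15 tested target genes of SRF, 12 had a log2 fold change above 0 and 1 was called, EGR1, an immediate early transcription factor, at 14.3 ± 2.10 and 23.6 ± 2.13 CPM (0.72, SE 0.125, edgeR, adjusted p = 0.0167). EGR1 lost its call without H295R replicate 3 (adjusted p = 0.0580) or H295R-PM-Ptc+ replicate 2 (0.0610). With the block 6 targets were called, each higher under the H295R-PM-Ptc+ label, where 12.1% of all genes were called higher. Of all 16710 tested genes, 8382 had a log2 fold change above 0 without the block. By replicate number 9 of the 15 targets differed, against 26.0% of all genes. ANKRD1 was among the 6 targets called with the block. It had 2, 9 and 4 counts under the H295R label and 16, 18 and 18 under the other, and passed the filter on low counts through the second group alone. Among the other 5 were the secreted matricellular genes CYR61 (0.51, adjusted p = 3.60e-05) and CTGF (0.96, adjusted p = 4.08e-04). Without the block and with 1 library left out, CYR61 ranged from 0.25 to 0.66 and CTGF from 0.56 to 1.29. The filament linkers FLNA (filamin, 193 CPM per kilobase) and VCL (vinculin, 55.9 CPM per kilobase) were the most abundant targets, with log2 fold changes of 0.09 each and no call with or without the block.

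The focal adhesion partners of alpha-actinin had 0 of 14 tested genes called (edgeR, 1 at an unadjusted p under 0.05) and 3 with the block, all higher. Talin TLN1 and LASP1 led it, at 57.9 and 25.8 CPM per kilobase. In the transforming growth factor beta list, which holds both signalling and response genes, 1 of 15 was called. That gene, TGFBI, a secreted matrix protein, had 5, 4 and 6 counts in the libraries labelled H295R and 97, 121 and 79 in those labelled H295R-PM-Ptc+. It passed the filter on low counts through the second group alone, and was not tested where at least 10 counts were required in every library. Its levels were 0.203 ± 0.0430 and 4.02 ± 0.754 CPM (SD, n = 3, log2 fold change 4.28, SE 0.275, edgeR, adjusted p = 3.25e-04). The most abundant were LTBP1, which stores the latent ligand, and the receptor TGFBR1, at 91.9 and 40.4 CPM per kilobase. TGFBR1 had a log2 fold change of −0.30, with an adjusted p of 0.332 without the block and 1.61e-04 with it (edgeR). The median of the list was 0.00, and with the block 5 of its genes were lower and 1 higher.

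**Figure D5:**
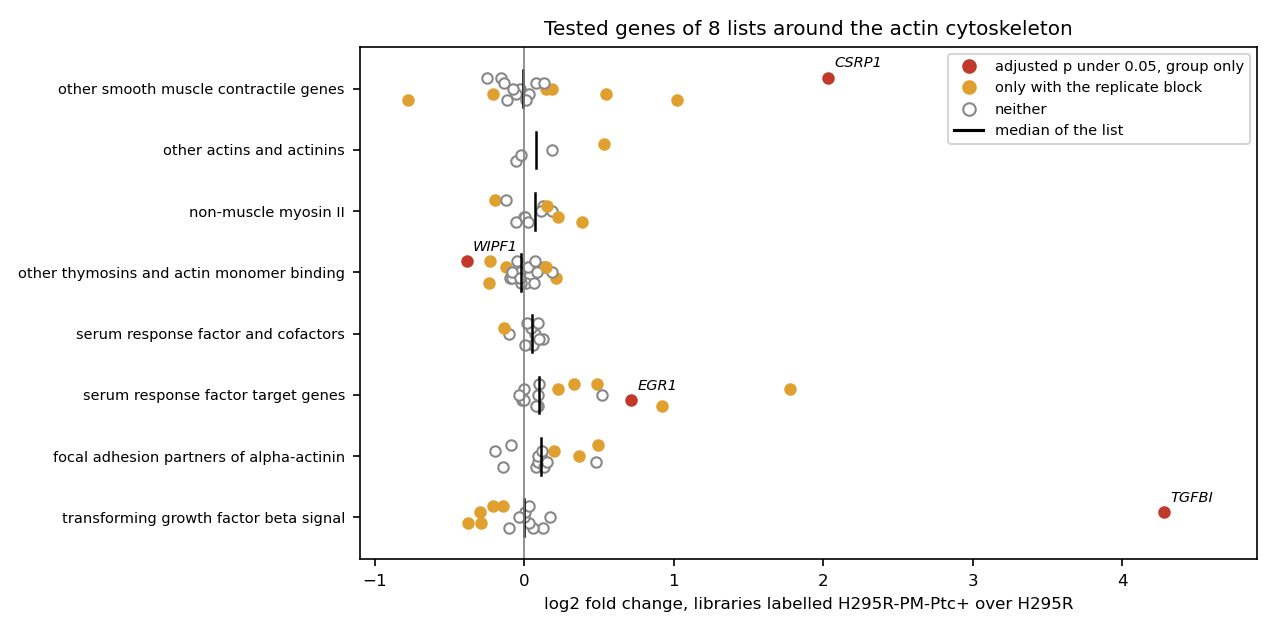
Log2 fold change between groups for each tested gene of the 8 pathway lists, with 1 row per list, the list median marked and called genes named. The medians lie near 0 and CSRP1 and TGFBI stand farthest to the right.

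The genes whose level followed a member most closely over the 6 libraries were found by Pearson's r of log2(CPM + 0.5), as a description with no test. For ACTA2 they were CPE (0.998), CUL4A (0.996) and PPFIBP1 (0.996), and 13 of the 16709 other tested genes had an r above 0.99. Like ACTA2, CPE was lowest in replicate 1 labelled H295R, at 4.35 CPM, and highest in replicate 2 labelled H295R-PM-Ptc+, at 7.24 CPM. For TMSB4X they were FYB (0.990), U2AF1 (0.989) and MRRF (0.985), each lower in all 3 libraries labelled H295R-PM-Ptc+ than in any labelled H295R. For TAGLN they were RP3-512B11.3 (0.993), PCBD2 (0.993) and ZNF860 (0.983). All points share the same 6 libraries, with their group and replicate structure.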

How the data were processed

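Poly(A) RNA of 3 libraries of each group was sequenced in stranded paired-end reads. Per the submitters' processing notes the authors aligned reads to hg38 with STAR 2.4.0a and counted them per gene name with featureCounts of Subread 1.5.0-p3 (the study's methods name another Subread release and a different library kit from the labels), on the sense strand, with multiply mapped reads at their primary position. The authors deposited raw counts without normalization. Merged exon lengths stood in the same table. The table has 57342 rows, of which 1 without a gene name held 0 counts and was left out.

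Groups and replicate numbers came from the labels. Genes kept by filterByExpr (16710, with 99.9% of counts) were scaled by TMM and tested two-sided with edgeR 4.0.16 in R 4.3.3 (glmQLFit, glmQLFTest, group alone), with Benjamini-Hochberg adjustment over all tested genes and a threshold of 0.05. The replicate block, DESeq2 1.42.0, limma-voom (limma 3.58.1), other size factors, other filters and libraries left out were alternatives. Same-numbered libraries were taken as pairs because they share a sample code in the labels and each of the 3 deviation correlations was above those of all other combinations. Depth was 23264403 to 25813247 counts, and intervals and limits cover counting error only. Promoter windows came from RefSeq.

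The members, lists and comparisons were chosen with earlier results of these data known. Of the lists as first written, 1 gene was left out of every list count and is not reported here. The rule for named genes took every member, PTCH1, the called genes (up to 4) and the 2 highest per kilobase of each list, and the 3 genes most like ACTA2, TAGLN and TMSB4X. ACTN4, MYH9, MYH11, MYLK, MYL12A, MYOCD, DES, TAGLN2, TMSB15A, CYR61, CTGF, SRF and the named markers were chosen after their values were seen. ANKRD1, ACTC1 and ACTA1 also stand outside that rule. The p-values of the replicate number come from the same edgeR tool with group in the model.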

Additional observations from a re-analysis of the deposited data

How the results depend on the processing

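Of the members' log2 fold changes under all alternatives, 86 kept direction and side of the threshold, 9 passed newly, 4 no longer passed and 5 changed sign; the sign changes were TPM1 without H295R replicate 1 (−0.062) or H295R-PM-Ptc+ replicate 2 (−0.0055), and TPM2 without H295R replicate 2 (−0.01) or 3 (−0.086) or H295R-PM-Ptc+ replicate 2 (−0.06). With 1 library left out, TPM1 ranged from −0.062 to 0.34 and TPM2 from −0.086 to 0.22. The number of members called, 1 of 8, was 2 each by DESeq2 and in the fit without a filter, 5 with the replicate block, and 0 to 2 with 1 library left out. It was 0 without H295R replicate 2 or 3 or H295R-PM-Ptc+ replicate 2 or 3. Without both replicate 1 libraries, an alternative chosen after seeing the data, it was 3. The number of pathway genes called, 4, was 11 with no filter, 2 with at least 10 counts in every library, 34 with the replicate block, 2 to 6 with 1 library left out (2 without H295R replicate 3 or H295R-PM-Ptc+ replicate 2) and 19 without both replicate 1 libraries. The number that differed by replicate number was 4 to 7 of 8. PTCH1 had log2 fold changes of −0.91 to −0.67 with 1 library left out. The cause of these changes was not tested. Depth limits TAGLN, at 25 to 55 counts a library, and CNN1 and MYL9, which had too few counts for any comparison.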
